A study of Mus musculus with 8 samples.

Results

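The nuclear-encoded genes of the mitochondrial respiratory chain were followed in granulosa cells of the mouse ovary, which enclose and nourish the oocyte within its follicle. Members were all genes whose symbol begins with Nduf, Uqcr, Atp5 or Cox4 to Cox8, together with Sdha, Sdhb, Sdhc and Sdhd, and they were sorted into complexes I to V by that name. The rule found 90 genes among 23235 in the table: 42 for complex I, 4 for complex II, 8 for complex III, 19 for complex IV and 17 for complex V. By textbook role 83 encode subunits, of which 20 are core or catalytic subunits, 55 are accessory subunits and 8 are isoforms restricted to certain tissues. A further 6 encode assembly or coupling factors, and 1, Cox4nb, shares only the name, being a subunit of the endoplasmic reticulum membrane protein complex encoded next to Cox4i1.

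RNA came from granulosa cells of C57BL/6 females in 4 groups of 2 libraries: wild type (WT) untreated (0 h), CNOT6/6L knockout (KO, also labelled Cnot66l DKO) untreated, WT 44 h after PMSG and KO 44 h after PMSG. PMSG is a gonadotropin with FSH-like activity that drives follicles to grow, and CNOT6 and CNOT6L are deadenylases of the CCR4-NOT complex, which shortens mRNA poly(A) tails before decay. The age of the animals, the PMSG dose, the knockout alleles and any Cre driver are not stated in the labels. No label says that replicates are separate animals. P-values therefore reflect the spread between libraries alone, and that spread may be technical. Below, untreated means 0 h and primed means 44 h after PMSG.

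The respiratory chain sits in the inner mitochondrial membrane. Complex I takes electrons from NADH and complex II takes them from succinate. Ubiquinone carries them to complex III, cytochrome c carries them on to complex IV, and complex IV passes them to oxygen. Proton pumping by complexes I, III and IV drives ATP synthesis by complex V. A few subunits of complexes I, III, IV and V are encoded by mitochondrial DNA, and all others, including the whole of complex II, by the nucleus. In steroid-making cells the same membrane holds the side-chain cleavage enzyme CYP11A1, which receives electrons from NADPH through ferredoxin and its reductase and not from the chain.

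Values are FPKM, fragments scaled by transcript length and by the mapped fragments of the library, so levels of different genes can be compared per length. Differences are on the log2(FPKM + 1) scale, on which low genes appear to change less than they do. Relative depth, read from the steps between low FPKM values, was 0.905 to 1.25 (median library 1), and 12115 to 13196 genes reached an FPKM of 1. All 10 granulosa markers checked were present, Foxl2, for example, at 14.1 to 25.2 FPKM. Cnot6 was 29.1 and 18.4 FPKM in untreated WT, 11.8 and 12 in untreated KO, 26.1 and 26.9 in primed WT and 26.7 and 17.4 in primed KO. For Cnot6l the FPKM was 6.11 and 7.07 in untreated WT, 4.69 and 1.97 in untreated KO, 4.202 and 2.63 in primed WT and 2.01 and 1.61 in primed KO. At 0 h the log2 difference of KO from WT was -0.91 (SE 0.27, limma adjusted p = 0.396) for Cnot6 and -0.88 (SE 0.34, limma adjusted p = 0.487) for Cnot6l, neither past the threshold. The primed library labelled KO replicate 1 lay within the WT range for Cnot6 and below it for Cnot6l, and it stood apart from its partner. Between that pair 1527 of 13688 tested genes were at least 2-fold apart, against 317, 382 and 432 in the pairs of WT at 0 h, WT at 44 h and KO at 0 h, and Cyp11a1 was 129 FPKM in replicate 1 and 2508 in replicate 2. The main results that use KO at 44 h are therefore given with and without that library.

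Respiratory chain transcripts were among the most abundant in these cells. The median member had a mean of 362.9 FPKM over the 8 libraries, at the 97.5th percentile of all tested genes, whose median was 10.3. Of the 90 members 74 averaged at least 100 FPKM and 31 at least 500. Together they made up 5.05% to 7.002% of all FPKM in a library. Complex III had the highest median level (612 FPKM), followed by complex V (512), complex I (307), complex IV (246) and complex II (194). The complex IV median includes restricted isoforms (at most 34.0 FPKM) and Cox4nb (19.8). Its general forms ran from 186 FPKM (Cox7b) to 1771 (Cox6a1), so its place in this order depends on those low genes. Accessory subunits (median 507 FPKM, n = 55) were above core subunits (281, n = 20), assembly and coupling factors (29, n = 6) and restricted isoforms (5.83, n = 8).

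**Figure D1:**
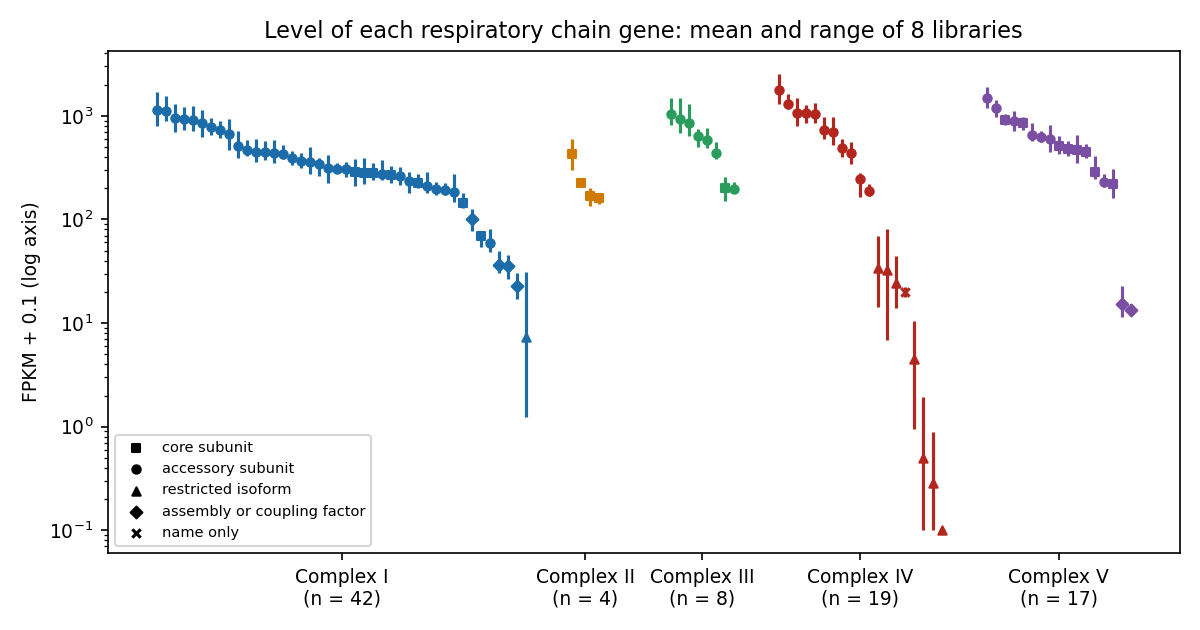
Mean FPKM of each of the 90 genes (symbol) with the range over 8 libraries (line), by complex and in falling order within it, on a log axis of FPKM + 0.1. Most subunits lie between 100 and 1771 FPKM, and the restricted isoforms (triangles) and assembly or coupling factors (diamonds) lie at the low end of complexes I, IV and V.

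In complex I the 4 most abundant transcripts were Ndufc1 (mean 1131 FPKM), Ndufa3 (1107), Ndufa12 (953) and Ndufa4 (927). The first of these are accessory subunits, and Ndufa4, named for complex I, has since been assigned to complex IV. The 7 core subunits of the electron-transfer arm were lower than these, and the lowest was Ndufs1 at 69.3 FPKM. In complex II the iron-sulfur subunit Sdhb averaged 428 FPKM, above the membrane anchors Sdhd (222) and Sdhc (161) and the succinate-oxidising flavoprotein Sdha (167). Sdhc and Sdha did not differ beyond their spread over libraries, 140 to 171 and 134 to 203 FPKM. In complex III the small accessory subunits Uqcr10 (1041), Uqcr11 (935), Uqcrq (862) and Uqcrb (635) led, and the Rieske iron-sulfur protein Uqcrfs1 (200.3) and core protein Uqcrc2 (198) were lowest. Complex IV was led by Cox6a1 (1771), Cox4i1 (1309), Cox6b1 (1074) and Cox6c (1059), the general forms of their subunits. Complex V was led by Atp5k (1472), Atp5j (1179), the catalytic beta subunit Atp5b (919.6) and Atp5o (893).

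Neighbouring genes in these orders mostly overlapped in their ranges over libraries. The short length of most members bears on FPKM: their median transcript was 682 nt against 2061 nt for tested genes with a length, and 81 of 88 tested members were under 1500 nt.

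After PMSG in WT, most members lay somewhat higher than before it, while the typical gene lay lower. The median of the 90 members was 0.21 higher at 44 h than at 0 h on the log2 scale, against -0.13 for all 13688 tested genes. Of the 90, 75 were higher at 44 h, 13 lower and 2 equal. Both 44 h libraries exceeded both 0 h libraries for 45 of 88 tested members (51.1%), where 22.5% of all tested genes did so. The opposite order held for 8 members (9.09%), where 40.6% of all tested genes showed it. At an unadjusted limma p under 0.05, 13 members were higher (14.8%, against 8.27% of all tested genes) and 1 was lower (1.14%, against 15.8%). No member passed an adjusted p of 0.05, the smallest being 0.108, and 0.0804% of all tested genes did (11 genes). For single genes the difference was thus not shown by this test to exceed the spread between replicates.

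The size of the shift differed between the WT libraries at 44 h. Relative to the WT 0 h mean, the median member lay at 0.083 in replicate 1 and 0.34 in replicate 2, and the 0 h libraries lay at 0.057 and -0.057. Replicate 1 at 44 h was thus separated from replicate 1 at 0 h by less than the pair at 44 h differed between themselves, and the pooled SD of the library medians was 0.16. The median change was 0.083 without replicate 2 at 44 h and 0.34 without replicate 1, higher in both cases.

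**Figure D2:**
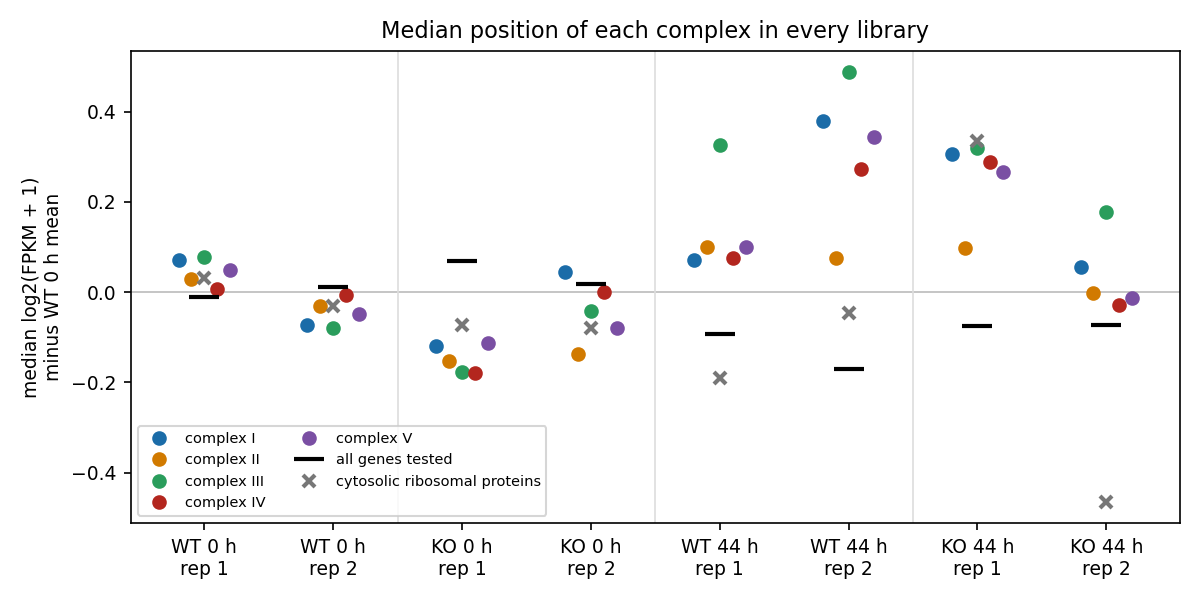
Median log2(FPKM + 1) difference from the WT 0 h mean for the genes of each complex (circles), all tested genes (bars) and 79 cytosolic ribosomal protein genes (crosses), in each of the 8 libraries. Complex III lies above the other complexes in both WT libraries at 44 h (0.33 and 0.49), and the ribosomal protein genes lie far apart in the KO pair at 44 h (0.34 and -0.46).

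Complex I in WT had a median of 0.24 (37 of 42 higher, and 19 of 42 with both 44 h libraries above both 0 h libraries). Ndufc1 was 1061 and 876 FPKM in untreated WT, 799 and 957 in untreated KO, 1300 and 1691 in primed WT and 1192 and 1176 in primed KO, replicate 1 first. Its 4 libraries at 44 h all lay above its 4 at 0 h, and the WT difference was 0.62 (SE 0.21, limma adjusted p = 0.144). Ndufv3, an accessory subunit of the NADH-oxidising module, was 259 and 223 FPKM in untreated WT, 266 and 267 in untreated KO, 307 and 404 in primed WT and 423 and 348 in primed KO. Here too no 44 h library reached down to a 0 h one, with differences of 0.55 in WT and 0.52 in KO (SE 0.19 each, limma adjusted p = 0.154 and 0.185). Ndufa3 (0.43) and Ndufa4 (0.33) were higher in WT without overlap, and Ndufa12 (0.26) overlapped.

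Complex II was the least shifted, with a median of 0.056 in WT. Sdhb was 432 and 312 FPKM in untreated WT, 301 and 375 in untreated KO, 465 and 595 in primed WT and 455 and 487 in primed KO. It was the complex II gene without overlap in WT, by 0.52 (SE 0.22, limma adjusted p = 0.215). For the others the WT differences were 0.0055 for Sdha, -0.0016 for Sdhc and 0.11 for Sdhd (SE 0.14 to 0.18). Under quantile normalization the WT median of this complex was -0.049, so its direction was not stable.

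Complex III stood highest, with a WT median of 0.39, and all 8 of its genes were higher at 44 h, 7 of them without overlap. The Rieske protein gene Uqcrfs1, whose iron-sulfur cluster passes electrons from ubiquinol, was 182 and 166 FPKM in untreated WT, 151 and 168 in untreated KO, 233 and 256 in primed WT and 242 and 205 in primed KO. All 44 h libraries were above all 0 h libraries, by 0.49 in WT and 0.48 in KO (SE 0.16 each, limma adjusted p = 0.135 and 0.155). The accessory subunit Uqcr10 was 900.3 and 821 FPKM in untreated WT, 811 and 823 in untreated KO, 1151 and 1481 in primed WT and 1267 and 1070 in primed KO. Its groups were likewise separate, by 0.60 in WT and 0.51 in KO (SE 0.19, limma adjusted p = 0.136 and 0.194). Uqcrq was 749 and 660 FPKM in untreated WT, 635 and 702 in untreated KO, 924 and 1303 in primed WT and 1015 and 904 in primed KO, a WT difference of 0.64 (SE 0.21, limma adjusted p = 0.139). Uqcr11 differed by 0.61 in WT (SE 0.22, limma adjusted p = 0.164) and Uqcrb by 0.25. The 2 largest subunits, the core proteins Uqcrc1 and Uqcrc2, differed by 0.12 and 0.063.

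Complex IV had a WT median of 0.18, with 13 of 19 higher. Cox8a, the general form of subunit 8, was 612 and 622 FPKM in untreated WT, 545 and 522 in untreated KO, 816 and 982 in primed WT and 774 and 716 in primed KO. Every 44 h library exceeded every 0 h library, and the differences were 0.54 in WT and 0.48 in KO (SE 0.16 each, limma adjusted p = 0.127 and 0.166). Cox6a1 was 1506 and 1518 FPKM in untreated WT, 1296 and 1434 in untreated KO, 1963 and 2556 in primed WT and 2138 and 1759 in primed KO, with a WT difference of 0.57 (SE 0.21, limma adjusted p = 0.167). Cox6b1 differed by 0.44, Cox4i1 by 0.22, Cox7b by 0.23, Cox7a2 by 0.21 and Cox6c by 0.17 in WT, each without overlap. Cox7a2l, a supercomplex factor related to subunit 7a, was the general form that lay lower, by -0.11, with overlapping libraries.

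**Figure D3:**
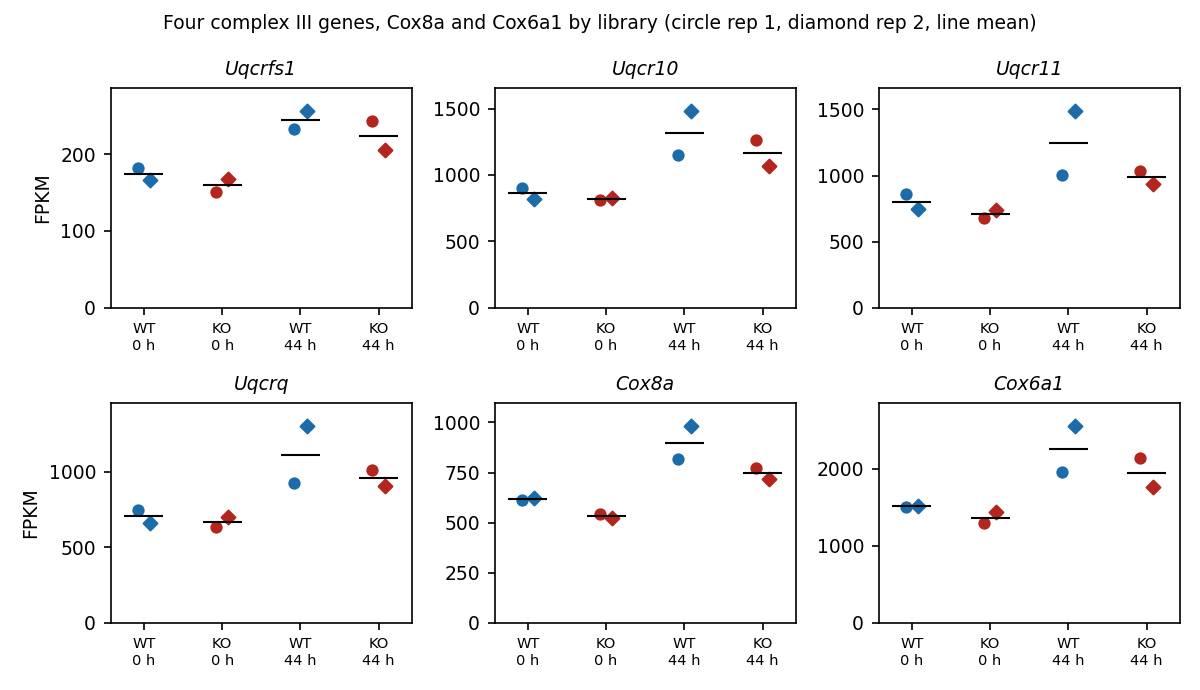
FPKM in each library of 4 complex III genes (Uqcrfs1, Uqcr10, Uqcr11, Uqcrq) and of Cox8a and Cox6a1, with replicate 1 as circles, replicate 2 as diamonds and the group mean as a line; axes start at 0. In each panel the 4 libraries at 44 h lie above the 4 at 0 h, and the WT replicates are farther apart at 44 h than at 0 h.

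Complex V had a WT median of 0.20, with 14 of 17 higher. Atp5l, subunit g of the membrane part, was 547 and 450.4 FPKM in untreated WT, 459 and 469 in untreated KO, 675 and 799.7 in primed WT and 820 and 584 in primed KO. Its 44 h libraries were all above its 0 h libraries, by 0.57 in WT and 0.58 in KO (SE 0.21, limma adjusted p = 0.173 and 0.190). The WT values of the catalytic head were 0.061 for Atp5b and 0.12 for Atp5a1, both overlapping, and those of the central-stalk subunits Atp5c1, Atp5d and Atp5e were 0.22, 0.44 and 0.28, each without overlap. Atp5k (0.23), Atp5j (0.19) and Atp5o (0.20) overlapped in WT.

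In all complexes together, accessory subunits had a WT median of 0.25 (52 of 55 higher) and core subunits 0.14 (18 of 20 higher). Without WT replicate 2 at 44 h these were 0.10 and 0.11, so the order of the classes rests on that library. Across the 88 tested members, Spearman's rho between transcript length and the WT change was -0.33 (-0.29 in KO), given as a description since the genes share libraries. Among all tested genes under 1500 nt the median WT change was -0.034 and among longer ones -0.18, while the 81 members under 1500 nt had a median of 0.23. The part of transcript length in the members' shift was not tested.

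In KO the members showed a shift of like size. Their median was 0.24 higher at 44 h than at 0 h, against -0.11 for all tested genes, and 76 of 90 were higher and 13 lower. Both 44 h libraries exceeded both 0 h libraries for 47 of 88 tested members (53.4%, against 14.3% of all tested genes), and both lay below for 3 (3.41%, against 34.1%). At an unadjusted limma p under 0.05, 8 were higher (9.09%, against 5.63%) and 2 lower (2.27%, against 15.4%). The 2 lower were Cox8c and Cox6a2. Cox8c passed the filter on low values only through KO at 0 h, so its lower value at 44 h was fixed by that choice. No member passed an adjusted p of 0.05, and 0.139% of all tested genes did. The smallest adjusted p was that of Cox8c (0.0953), followed by Cox6a2 (0.118). Without the library labelled KO replicate 1, the remaining primed KO library lay above both untreated ones for 52 members (59.1%, against 32.6%) and below both for 17 (19.3%, against 47.7%), and at an unadjusted limma p under 0.05 there were 5 higher (5.68%, against 11.7%) and 6 lower (6.82%, against 16.9%). Complex medians were 0.27 for I, 0.11 for II, 0.40 for III, 0.24 for IV and 0.21 for V.

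The KO value rests unevenly on its pair at 44 h. Against the KO 0 h mean, the median member lay 0.38 higher in the library labelled KO replicate 1 and 0.12 higher in replicate 2. By complex these were 0.37 and 0.14 for I, 0.16 and 0.18 for II, 0.48 and 0.30 for III, 0.44 and 0.0058 for IV and 0.38 and 0.12 for V. Complex III thus stayed above the other complexes in each of the 2 libraries, and complex IV was level with 0 h in replicate 2. Replicate 1 was the library with the low Cyp11a1, and within the pair it was also higher for 76 of 79 cytosolic ribosomal protein genes, by a median of 0.79, and for 75 of 90 members, by a median of 0.28. All 17 complex V genes were higher in replicate 1 of that pair. The part of this library difference in the members' shift was not tested.

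The WT and KO changes share no library and could be set side by side. Of the 45 members higher without overlap in WT, 35 (77.8%) were so in KO, which is 74.5% of the 47 there. Over all tested genes 1256 were so in both, 40.9% of those in WT and 64.2% of those in KO. Across the 90 members the WT and KO changes had a Pearson r of 0.80 and a Spearman's rho of 0.85, and across all tested genes 0.61 and 0.74. These are descriptions across genes, which are not independent replicates. With the library labelled KO replicate 1 alone the Pearson r of the members was 0.18, and with replicate 2 alone it was 0.87. Without the 8 restricted isoforms these became 0.60 and 0.77.

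**Figure D4:**
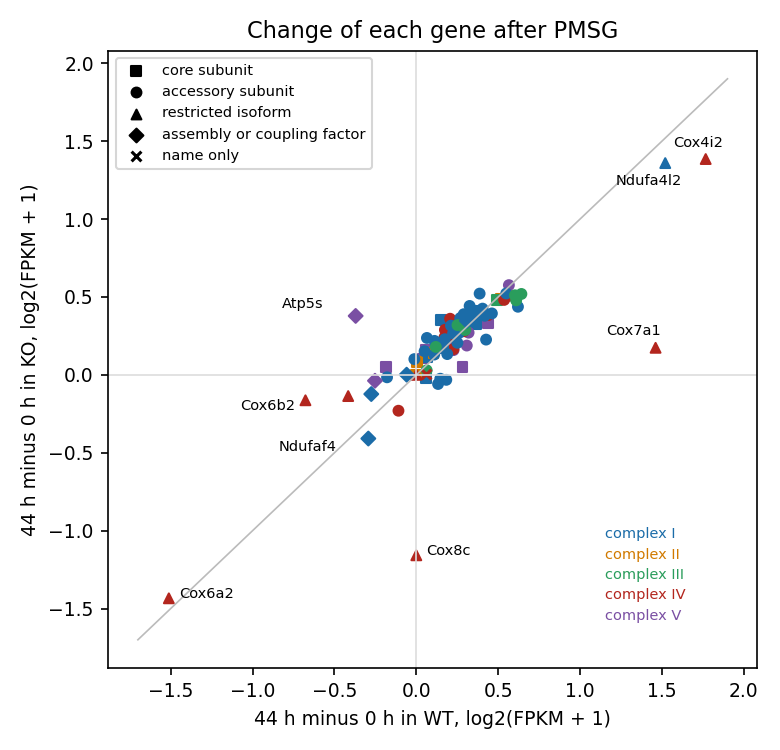
Change from 0 h to 44 h in KO against the change in WT for each of the 90 genes, in log2(FPKM + 1), coloured by complex with a symbol for the role; the grey diagonal marks equal change. Most genes lie between 0 and 0.64 on both axes, and those farthest from that range are restricted isoforms (triangles).

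Isoforms restricted to certain tissues spread far more than the general subunits. Cox4i2, the alternative form of subunit 4 known from lung and from hypoxic cells, was 26.6 and 8.41 FPKM in untreated WT, 15.5 and 6.83 in untreated KO, 46.7 and 62.1 in primed WT and 9.71 and 81.2 in primed KO. It was high in 3 of the 4 libraries at 44 h and low in the library labelled KO replicate 1, and the WT difference was 1.77 (SE 0.94, limma adjusted p = 0.294). Cox4i2 made up 0.682% to 2.12% of summed Cox4 FPKM in untreated WT, 3.48% and 3.77% in primed WT, and 0.589% and 6.48% in the KO pair at 44 h.

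Ndufa4l2, a hypoxia-inducible paralog of Ndufa4, followed the same order of libraries at 44 h. It was 3.14 and 1.58 FPKM in untreated WT, 2.93 and 1.64 in untreated KO, 8.10 and 8.66 in primed WT and 1.151 and 30.8 in primed KO. The WT difference was 1.52 without overlap (SE 1.07, limma adjusted p = 0.419), while the KO pair at 44 h held both the lowest and the highest value of all 8 libraries. Cox7a1, the heart and muscle form of subunit 7a, was 17.4 and 24.1 FPKM in untreated WT, 17.6 and 31.2 in untreated KO, 48.8 and 69.2 in primed WT and 14.2 and 49.2 in primed KO. It took 10.04% and 11.7% of Cox7a1 and Cox7a2 together in WT at 44 h, against 3.92% and 5.64% at 0 h, and 2.45% and 11.1% in the KO pair at 44 h. The WT difference was 1.46 (SE 0.55, limma adjusted p = 0.173), and at 44 h the KO mean lay 1.10 below WT (log2 difference -1.10, limma adjusted p = 0.553), with replicate 2 inside the WT range.

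**Figure D5:**
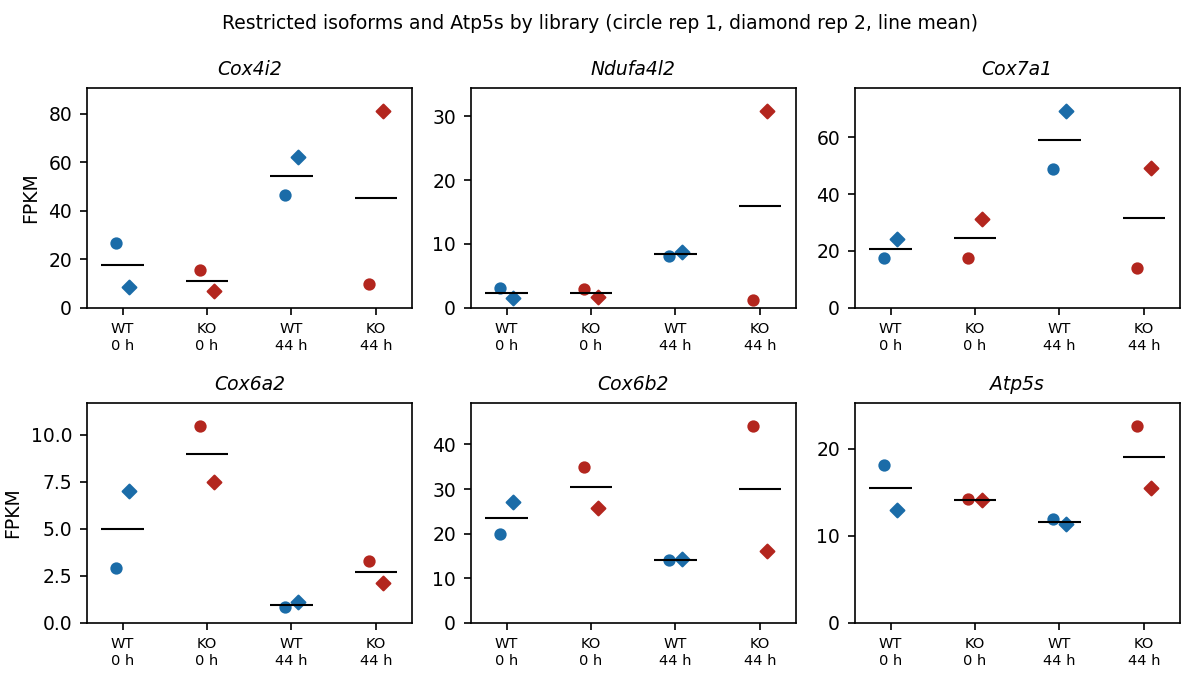
FPKM in each library of the restricted isoforms Cox4i2, Ndufa4l2, Cox7a1, Cox6a2 and Cox6b2 and of Atp5s, with replicate 1 as circles, replicate 2 as diamonds and the group mean as a line; axes start at 0. Cox4i2, Ndufa4l2 and Cox7a1 are high in both WT libraries and KO replicate 2 at 44 h and low in the primed library labelled KO replicate 1.

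Other fits called some of these isoforms. With the 2 WT groups fitted alone (6.90% of all tested genes called), Cox7a1 (limma adjusted p = 0.0333) and Ndufa4l2 (0.0415) were called higher at 44 h. Without the primed library labelled KO replicate 1 (9.74% of all genes called), or without replicate 2 (9.72%), the WT comparison called Cox7a1 (0.0395 and 0.0393) and Ndufa4l2 (0.0340 and 0.0343) higher and Cox6a2 (0.0488 and 0.0484) lower. In KO without the library labelled replicate 1 (8.54% of all genes called), Ndufa4l2 was called higher at 44 h, by 3.30 (SE 0.37, limma adjusted p = 0.00842). The limma adjusted p of Cox4i2 in the WT comparison of these fits was 0.0875 to 0.0880, not past the threshold.

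Among the primed libraries, these 3 isoforms were lowest in the one labelled KO replicate 1, and so were the summed markers of several other cell types. Summed surface epithelium markers were 55.4 and 47.0 FPKM in untreated WT, 33.2 and 18.2 in untreated KO, 83.9 and 115 in primed WT, and 37.4 in the library labelled KO replicate 1 against 201 in replicate 2 at 44 h. All 5 were higher in WT at 44 h, none past an adjusted p of 0.05. Summed endothelial markers were 6.65 to 14.3 FPKM at 0 h, 12.8 and 16.5 in primed WT and 6.90 and 18.8 in primed KO. Theca and stroma markers summed to 99.7 to 141 FPKM at 0 h, 314 and 287 in WT and 245 and 347 in primed KO, and all 10 were higher in WT at 44 h. The sum hides opposite movements: in the primed library labelled KO replicate 1, Dcn (101 FPKM) and Hsd3b6 (3.23) were above both primed WT libraries, while Cyp17a1 (81.9) was below both. Striated muscle markers summed to 1.75 to 4.11 FPKM in all libraries, with 3 of 5 under 1 FPKM in each of them. Oviduct and ciliated markers were 6.90 and 20.2 in untreated WT, 80.04 and 19.3 in untreated KO, 383 and 10.4 in primed WT and 6.97 and 375 in primed KO, so they were also low in a WT library where the isoforms were high. Immune markers did not follow that order, with 214 and 192 in untreated WT, 832 and 149.5 in untreated KO, 287 and 205 in primed WT and 369 and 417 in primed KO. Erythroid markers summed to 7.69 to 124 FPKM, lowest in the primed library labelled KO replicate 1. None of these lists had a marker at 0 in all libraries. Granulosa genes went both ways in the primed library labelled KO replicate 1. Cyp19a1 was 29.4 FPKM there against 96.4 and 130 in primed WT and 122 in its partner. Inhba, Cyp11a1, Fdx1 and Fdxr were also lowest there among primed libraries, while Inha, Amh, Esr2 and Fst were highest. In bulk RNA, fewer cells of a type and less RNA per cell cannot be told apart. The parts of other cell types and of these granulosa differences in the isoform values were not tested.

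Cox6a2, the heart and muscle form of subunit 6a, lay lower at 44 h. It was 2.91 and 7.03 FPKM in untreated WT, 10.5 and 7.49 in untreated KO, 0.854 and 1.08 in primed WT and 3.31 and 2.09 in primed KO. The WT 44 h libraries were below both WT 0 h libraries, by a log2 difference of -1.51 (SE 0.37, limma adjusted p = 0.108), and the KO 44 h libraries below both KO 0 h libraries, by -1.43 (limma adjusted p = 0.118). KO was above WT without overlap at both times, by 0.82 at 0 h (limma adjusted p = 0.548) and 0.89 at 44 h (0.507). The 12 oocyte markers checked, among them Zp3 and Gdf9, summed to 1396 and 2480 FPKM in untreated WT, 4144 and 3601 in untreated KO, 758 and 753 in primed WT and 1835 and 1108 in primed KO. The libraries thus lay in nearly the same order as for Cox6a2. All 12 were higher in KO at both times and lower at 44 h in both genotypes, and none was at 0 in all libraries. The part of oocyte RNA in Cox6a2 was not tested.

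Cox6b2, the testis form of subunit 6b, was 19.9 and 27.2 FPKM in untreated WT, 34.9 and 25.7 in untreated KO, 14 and 14.4 in primed WT and 44.1 and 15.99 in primed KO. WT was lower at 44 h by -0.68 (SE 0.43, limma adjusted p = 0.371), and at 44 h both KO libraries were above WT, by 0.87 (limma adjusted p = 0.550). Cox8c, the testis form of subunit 8, was listed at 0 in both WT groups, at 1.17 and 1.83 FPKM in KO at 0 h and at 0 and 0.233 in primed KO. It entered the test only through KO at 0 h and so had to differ there (log2 difference 1.31, limma adjusted p = 0.267), and a value listed at 0 may be a failed estimate. Cox7b2 reached at most 0.780 FPKM and Cox8b was listed at 0 in all 8 libraries, and neither was tested.

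The 3 genes for subunit c of the ATP synthase ring encode the same mature protein, and reads may have been split between such paralogs, so their balance is uncertain. Their sum was 1272 and 1194 FPKM in untreated WT, 1115 and 1183 in untreated KO, 1203 and 1503 in primed WT and 1559 and 1095 in primed KO. The share of Atp5g3 was 36.5% and 36.3% in untreated WT, 32.5% and 29.4% in untreated KO, 42.3% and 43.7% in primed WT and 33.3% and 38.2% in primed KO, above KO in WT at each time without overlap. Atp5g2 took 23.0% and 22.6% in untreated WT, 28.6% and 24.7% in untreated KO, 20.7% and 16.4% in primed WT and 26.0% and 22.4% in primed KO, the reverse order. Atp5g1 held 37.0% to 46.0% in all libraries.

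The 6 assembly and coupling factors did not follow the subunits. In WT 5 of them were lower at 44 h, 4 without overlap, with a median of -0.26. Of all 13688 tested genes 8474 were lower in WT, 40.6% without overlap, with a median of -0.13, so a lower value was common there. In KO 3 of the factors were lower and 3 higher (median -0.018, 0.088 under quantile normalization and 0.13 under median-of-ratios scaling). Ndufaf4, a complex I assembly factor, was 20.2 and 22.4 FPKM in untreated WT, 28.7 and 30.5 in untreated KO, 17.4 and 16.97 in primed WT and 25.2 and 19.2 in primed KO. KO was above WT without overlap at both times, by 0.46 at 0 h (SE 0.18, limma adjusted p = 0.484) and 0.34 at 44 h (0.554). Its 44 h level was below that at 0 h in both genotypes (-0.29 in WT, -0.41 in KO). The libraries lay in nearly the same order for Ndufaf4 as for the summed oocyte markers given above. The part of oocyte RNA in Ndufaf4 was not tested. Atp5s, coupling factor B, was 18.1 and 12.9 FPKM in untreated WT, 14.3 and 14.1 in untreated KO, 11.9 and 11.3 in primed WT and 22.6 and 15.5 in primed KO. It was below its 0 h libraries in WT at 44 h and above them in KO at 44 h, and KO exceeded WT at 44 h by 0.64 (SE 0.24, limma adjusted p = 0.497). Atp5sl, named for Atp5s and since assigned to complex I assembly, differed by -0.25 in WT and -0.038 in KO.

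Promoter windows were read for the members the results turn on: Cox8a, Uqcrfs1, Uqcr10, Ndufv3 and Atp5l were among the 4 smallest p of members higher after PMSG in WT or in KO, and Cox7a1 stands for the variable isoforms. Each window runs from 250 bases before to 50 after the start of the RefSeq gene on GRCm38.p6, 5′ to 3′ on the gene's strand, and covers promoter and first transcribed bases. Capitals mark matches, on either strand, to the motifs of NRF1 (CGCATGCGC), GABPA (CCGGAAGT), YY1 (AAGATGGCG) or ESRRA (TCAAGGTCA), factors known from promoters of respiratory chain genes. No match overlapped another in these 6 windows. Cox8a (chr19:7217567-7217866, minus strand), Uqcrfs1 (chr13:30545267-30545566, minus strand), Uqcr10 (chr11:4704295-4704594, minus strand), Ndufv3 (chr17:31519865-31520164, plus strand), Atp5l (chr9:44920693-44920992, minus strand) and Cox7a1 (chr7:30183921-30184220, plus strand) read as follows.
Cox8a: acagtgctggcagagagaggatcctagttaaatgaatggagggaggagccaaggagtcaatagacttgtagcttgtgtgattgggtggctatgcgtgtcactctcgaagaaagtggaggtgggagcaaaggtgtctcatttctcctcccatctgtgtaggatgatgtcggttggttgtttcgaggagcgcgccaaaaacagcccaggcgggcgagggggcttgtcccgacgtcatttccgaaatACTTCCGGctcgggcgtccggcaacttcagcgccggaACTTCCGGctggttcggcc
Atp5l: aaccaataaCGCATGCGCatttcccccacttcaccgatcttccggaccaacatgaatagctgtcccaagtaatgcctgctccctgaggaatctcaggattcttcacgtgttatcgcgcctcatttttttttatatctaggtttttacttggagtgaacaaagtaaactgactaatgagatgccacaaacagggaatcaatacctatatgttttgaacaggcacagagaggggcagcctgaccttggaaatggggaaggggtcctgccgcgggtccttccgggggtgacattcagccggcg
Uqcrfs1: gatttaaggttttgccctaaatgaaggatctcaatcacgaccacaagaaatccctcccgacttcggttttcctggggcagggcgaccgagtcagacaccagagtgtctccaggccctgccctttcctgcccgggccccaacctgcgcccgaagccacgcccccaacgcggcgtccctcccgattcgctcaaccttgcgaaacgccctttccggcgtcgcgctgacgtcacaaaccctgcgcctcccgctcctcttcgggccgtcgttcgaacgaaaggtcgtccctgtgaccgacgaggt
Uqcr10: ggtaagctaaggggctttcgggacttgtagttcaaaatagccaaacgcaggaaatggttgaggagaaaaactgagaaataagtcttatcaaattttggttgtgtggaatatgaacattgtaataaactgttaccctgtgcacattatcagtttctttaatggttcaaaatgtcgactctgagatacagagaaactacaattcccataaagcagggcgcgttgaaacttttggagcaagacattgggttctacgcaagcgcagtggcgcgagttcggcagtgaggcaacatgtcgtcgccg
Ndufv3: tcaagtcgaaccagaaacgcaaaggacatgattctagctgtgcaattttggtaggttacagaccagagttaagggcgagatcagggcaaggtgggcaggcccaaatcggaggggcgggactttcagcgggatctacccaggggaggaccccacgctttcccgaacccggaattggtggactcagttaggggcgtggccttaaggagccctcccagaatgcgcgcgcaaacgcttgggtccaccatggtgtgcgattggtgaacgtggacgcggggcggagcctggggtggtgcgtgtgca
Cox7a1: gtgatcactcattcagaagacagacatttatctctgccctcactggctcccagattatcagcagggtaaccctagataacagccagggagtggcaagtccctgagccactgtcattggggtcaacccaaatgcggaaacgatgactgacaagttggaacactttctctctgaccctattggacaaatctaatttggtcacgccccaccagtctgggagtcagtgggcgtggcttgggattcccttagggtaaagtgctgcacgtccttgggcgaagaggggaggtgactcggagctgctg

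Cox8a carried the GABPA letters at positions 245 and 282 of its window, both on the reverse strand, the first spanning the annotated start and the second just after it. Atp5l carried the NRF1 letters at position 10, and the other 4 windows held none of the motifs. The base composition differed too: the GC content was 56% in Cox8a, 62.3% in Uqcrfs1, 43.3% in Uqcr10, 59.7% in Ndufv3, 49% in Atp5l and 53% in Cox7a1, with 19, 31, 13, 20, 12 and 7 CpG pairs.

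Windows were found for 74 of the 90 members. A member or tested gene was counted once, if any of its windows held the motif. The last share for each motif counts single windows and is not on the same footing. The NRF1 letters were in 9 of the members (12.2%), against 3.92% of 10745 tested genes with a window and 1.75% of all 32851 windows. The YY1 motif was in 8 (10.8%, against 3.38% and 1.40%), the GABPA motif in 5 (6.76%, against 8.70% and 3.89%) and the motif of ESRRA, an estrogen-related receptor, in 2 (2.70%, against 0.316% and 0.423%). Any of these 4 motifs, searched on both strands, was in 23 members (31.1%), against 15.4% and 7.11%. By complex these were 9 of 37 for I, 1 of 3 for II (Sdhd), 3 of 5 for III (Uqcr11, Uqcrc1 and Uqcrh), 2 of 13 for IV (Cox6a1 and Cox8a) and 8 of 16 for V. Of the 4 restricted isoforms with a window none held a match.

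Without PMSG, KO and WT differed little. The median log2 difference of KO from WT at 0 h was -0.074 over the members and 0.034 over all tested genes, with 25 of 90 higher and 64 lower. KO lay below WT without overlap for 18 of 88 tested members (20.5%, against 19.1% of all tested genes) and above it for 9 (10.2%, against 27.3%). At an unadjusted limma p under 0.05, 2 were higher (2.27%, against 7.55%), namely Cox8c and Ndufaf4, and 0 lower (against 2.13%). No member passed an adjusted p of 0.05, against 0.0365% of all tested genes. The median was 0.0053 without WT replicate 1 and -0.0082 without KO replicate 1, so its size rests on those libraries and its direction on the first.

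Of the genes lower in KO at 0 h the smallest p was that of Sdha, which was 180 and 188 FPKM in WT and 145 and 142 in KO, a log2 difference of -0.36 (SE 0.18, limma adjusted p = 0.585). At 44 h Sdha was 168 and 203 FPKM in WT and 134 and 173 in KO, and these overlapped. All 4 genes of complex II had a negative difference at 0 h (median -0.12), as did 7 of 8 of complex III, 15 of 17 of complex V, 13 of 19 of complex IV and 25 of 42 of complex I. The counts of complexes I and IV rest on replicate 1 of both genotypes, and that of complex II mainly on WT replicate 1. Complexes III and V stayed mostly lower in KO. Without WT replicate 1, 3 of 8 genes of complex III and 6 of 17 of complex V were higher, and without KO replicate 1, 2 of 8 and 3 of 17. Without WT replicate 1, 28 of 42 genes of complex I and 2 of 4 of complex II were higher in KO, and without KO replicate 1, 26 of 42 and 1 of 4, while the median of complex IV was 0 in both cases. Atp5g3 (-0.34) and the complex I core subunit Ndufs1 (-0.20) were also among the 4 smallest p of those lower in KO. Beside Cox8c, Ndufaf4 and Cox6a2, the member with the next smallest p among those higher in KO was Ndufb11, by 0.17 (limma adjusted p = 0.845).

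At 44 h after PMSG the median log2 difference of KO from WT was -0.069 over the members and 0.046 over all tested genes, with 28 higher and 61 lower. KO lay above WT without overlap for 7 of 88 tested members (7.95%, against 23.9% of all tested genes) and below it for 7 (7.95%, against 15.1%). At an unadjusted limma p under 0.05, 2 were higher, Atp5s and Cox6a2 (2.27%, against 6.69%), and 0 lower (against 3.10%). No member passed an adjusted p of 0.05, against 0.0219% of all tested genes. The median turned to 0.10 without WT replicate 2 and to 0.069 without KO replicate 2, and was -0.18 without the library labelled KO replicate 1, so no direction held across libraries. The genes lowest in KO by p were Cox7a1, Atp5g3 (-0.31), Atp5d (-0.30) and Cox8a (-0.27, without overlap).

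Without KO replicate 2 at 44 h, so that KO is the single library labelled replicate 1, assumed to vary like the other groups, 5.85% of all tested genes were called at 44 h. Members called were then Cox6b2 (1.57 higher, limma adjusted p = 0.0276), Atp5g2 (0.71 higher, 0.0452), Ndufa4l2 (log2 difference -2.12, 0.0318) and Cox7a1 (-1.96, 0.0395). These values compare that library with WT and were not seen in its partner, where Ndufa4l2 was 30.8 FPKM and Cox7a1 49.2.

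The change after PMSG was compared between genotypes through the interaction, KO change minus WT change. Its median over the members was 0.021 (all tested genes -0.0058), and the quartiles were -0.056 and 0.083. At an unadjusted limma p under 0.05, 0 members were higher (0.752% of all tested genes) and 1 was lower, Cox8c (1.14%, against 1.07%), whose 3 groups near 0 make its value unreliable. No member passed an adjusted p of 0.05, the smallest being 0.9999, against 0.0438% of all tested genes. The largest positive term was that of Atp5s (0.75, SE 0.33) and the largest negative one that of Cox7a1 (-1.29, SE 0.78). By p, Ndufs1 (0.20), Cox6b2 (0.51) and Atp5sl (0.21) followed among the positive terms and Ndufb2 (-0.21) and Atp5e (-0.23) among the negative ones. For complexes I to V the medians were 0.040, 0.020, -0.022, -0.0094 and 0.040. Without the library labelled KO replicate 1 they were -0.12, 0.0061, -0.17, -0.18 and -0.13, and without KO replicate 2 0.17, -0.0015, 0.085, 0.22 and 0.18, so no complex kept a direction. Without the first of these libraries the term was 0.49 for Atp5s and -0.42 for Cox7a1.

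Transcripts of other carriers, subunits and regulators, which the names do not cover, mostly lay higher after PMSG as well. Of 14 listed carriers, subunits and regulators 13 were in the table, with medians of 0.34 in WT and 0.38 in KO, and 12 of 13 were higher in each genotype, 5 and 6 at an unadjusted limma p under 0.05 (8.27% and 5.63% of all tested genes were) and 0 at an adjusted p. Atpif1, the inhibitor of ATP synthase, was 1124 and 906 FPKM in untreated WT and 1471 and 1845 in primed WT (difference 0.71, SE 0.20, limma adjusted p = 0.113). Cyc1, the cytochrome c1 subunit of complex III, was 263 and 265 FPKM in untreated WT and 291 and 383 in primed WT (0.34, limma adjusted p = 0.276). Cytochrome c itself, Cycs, differed by 0.25 in WT and 0.57 in KO.

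Other mitochondrial lists had smaller medians. The 16 citric acid cycle and pyruvate dehydrogenase genes had medians of 0.013 in WT and 0.017 in KO, where 13 and 15 of them lay above the median of all tested genes. The 26 assembly factors outside the member names had -0.028 and -0.021, with 18 and 16 above that median, against 81 and 83 of the 90 members. The 15 genes for mitochondrial DNA upkeep and biogenesis had -0.20 and -0.23, with 4 of the 14 tested lower in WT and 3 in KO at an unadjusted limma p under 0.05 (15.8% and 15.4% of all tested genes were) and 0 at an adjusted p. Among these the transcription factor Nrf1 was 27.8 and 34.7 FPKM in untreated WT and 21.0 and 24.1 in primed WT (log2 difference -0.45, limma adjusted p = 0.181). Tfam, which packages mitochondrial DNA, was 13.3 and 13.2 FPKM at 0 h and 14.6 and 11.4 at 44 h. The steroid electron-transfer genes differed more: Fdx1, the ferredoxin, was 103 and 79.7 FPKM in untreated WT and 945 and 810.4 in primed WT (3.26, SE 0.51, limma adjusted p = 0.0767). In KO at 44 h Fdx1 was 203 FPKM in the library labelled replicate 1 and 708 in replicate 2, while the median member was higher in replicate 1. The lists were set by role, and no test between lists was made.

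Within groups the members moved as a block from library to library. The median difference of replicate 1 from replicate 2 was 0.11 in untreated WT (71 of 90 higher in replicate 1), -0.14 in untreated KO (69 of 90 higher in replicate 2), -0.27 in primed WT (79 higher in replicate 2) and 0.28 in primed KO (75 higher in replicate 1). Around those medians the interquartile ranges of the members were 0.21, 0.22, 0.28 and 0.28, against 0.39, 0.45, 0.42 and 0.70 for all tested genes. The members are far more abundant than the typical tested gene, and genes of like level were not compared. Outside the untreated KO pair, such movement was not particular to the members. Of 79 cytosolic ribosomal protein genes, 62 were higher in replicate 1 in untreated WT. In untreated KO they were split, with 43 higher in replicate 1 and 36 in replicate 2 (median 0.012). In primed WT 61 were higher in replicate 2, and in primed KO 76 in replicate 1. The shifts of the members between replicates at 44 h were thus as large as their median shift after PMSG.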

How the data were processed

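Gene expression was measured by RNA sequencing in 8 libraries (4 groups, 2 libraries each). The labels' protocols name Trizol extraction of flash-frozen cells, a TruSeq kit as well as a TruePrep one, and paired-end Illumina sequencing. The authors deposited FPKM values for 23235 gene symbols with 1 column per library, per the file headers. Per the submitters' processing notes, the tools were Cufflinks 2.2.1 and TopHat2 2.1.1 and the build mm9, with no role or order given. No source used here gives the annotation, the strand setting or the handling of paralogs.

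FPKM are not counts, so log2(FPKM + 1) was fitted with limma 3.58.1 in R 4.3.3 (1 mean per group over all 8 libraries, 4 residual degrees of freedom, two-sided moderated tests whose prior variance follows the mean). The 13688 genes that reached FPKM 1 in 2 or more libraries were tested, and p-values were Benjamini-Hochberg adjusted over all of them in each of 5 comparisons, with a threshold of 0.05. Of the members 88 were tested. The script was tested on simulated data.

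Members, roles, pathway lists and markers were chosen with earlier results of these data known. Named members were, by rule, the 4 most abundant in complexes I, III, IV and V, the Sdh genes, the restricted or paralogous isoforms, the 4 smallest p-values in each direction per comparison, and the 4 members farthest apart between the KO libraries at 44 h (mean FPKM of at least 5). Of the members the rule names, 1 is not reported here. A few others were named after their values were seen (Uqcrc1, Uqcrc2, Atp5a1 and other members set beside a named one). Promoter windows are RefSeq's on GRCm38.p6, a different build from mm9, and transcript lengths are those of GENCODE. Alternatives covered the pseudocount, the filter, scaling (quantile, median-of-ratios), fits of only the groups compared, a replicate block, robust empirical Bayes, subunits alone and leaving out each library. A crossed replicate block was added after seeing the data.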

Additional observations from a re-analysis of the deposited data

Results flagged for a closer look

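Atp5s, coupling factor B, lay on opposite sides of its 0 h level in the genotypes at 44 h. Its FPKM in WT was 18.1 and 12.9 at 0 h and 11.9 and 11.3 at 44 h, so both libraries at 44 h lay below both at 0 h. In KO it was 14.3 and 14.1 at 0 h and 22.6 and 15.5 at 44 h, so both lay above. The difference between the changes was 0.75 on the log2 scale (SE 0.33), and the limma interaction gave an adjusted p of 0.9999, so the difference did not pass that test. Among the 90 genes it was the only one whose groups were separate in opposite directions. The share of all tested genes with such a pattern was not counted, so this count does not set Atp5s apart. Its KO value at 44 h was highest in the library labelled KO replicate 1, which stood apart from its partner in many genes, and without that library the difference was 0.49.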

How the results depend on the processing

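No member was called in any of the 5 comparisons in the fit of all libraries. With a replicate block, and for KO against WT at 44 h and 44 h against 0 h in KO also with the crossed replicate block, 0 members were called. Same-numbered libraries did not deviate together (correlations of -0.11 to -0.0068 between groups). This check cannot show whether the numbers stand for a shared batch. Fitting only the WT groups called 2 of 88 tested members (2.27%), against 6.90% of all tested genes. For the fits without a library that called members, the shares of all tested genes called are given above. Leaving out single libraries called 0 to 3 in WT, 0 to 4 in KO against WT at 44 h (4 without KO replicate 2), 0 to 1 in KO (1 without the library labelled KO replicate 1) and 0 in the other comparisons.

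The median change of the members after PMSG kept its direction in every alternative run, with 0.083 to 0.34 in WT and 0.12 to 0.38 in KO over the fits that left out a library. Quantile normalization gave 0.11 and 0.15, and median-of-ratios scaling 0.36 and 0.40. Both also moved the median of all tested genes, which was -0.13 in WT and -0.11 in KO as deposited. It became -0.063 and -0.017 under quantile normalization and -0.011 and 0.025 under median-of-ratios scaling. The genotype medians were not stable: leaving out libraries gave -0.15 to 0.0053 at 0 h and -0.20 to 0.10 at 44 h, quantile normalization gave 8.6e-04 at 44 h, and the interaction ran from -0.14 to 0.16. With a single KO library at 44 h, assumed to vary like the other groups, the change of Cox7a2l in KO ran from -0.61 (without replicate 1) to 0.15 (without replicate 2), and the interaction of Cox6b2 from -0.19 (without replicate 1) to 1.22 (without replicate 2). Cox6b2 (1.57) and Cox7a1 (-1.96) passed at 44 h without KO replicate 2, and Cox6a2 (-1.51) passed in WT when either KO library at 44 h was left out. The numbers of fragments are not in the table, so counting error is unknown.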
